A study of Mus musculus with 47 samples.

Results

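The retinoic acid pathway was followed in P19 cells through 10 genes: 5 nuclear receptors (Rara, Rarb, Rarg, Rxra and Rxrb), 2 intracellular binding proteins (Crabp1 and Crabp2) and 3 enzymes of retinoid turnover (Cyp26a1, Cyp26b1 and Dhrs3). They were chosen by name, as the 3′ UTR intervals whose RefSeq transcript belongs to 1 of these genes, and all 10 were found, which is 10 of 18850 gene symbols and 25 of 28190 mRNA transcripts. Retinoic acid enters a cell by diffusion, is carried by the binding proteins and acts on heterodimers of a retinoic acid receptor with a retinoid X receptor, which sit on DNA and switch from repression to activation when the acid is bound. Several genes that receive, carry or destroy retinoic acid are themselves known targets of these receptors, so that the pathway feeds back on its own ligand. P19 is the classical cell line in which this acid turns an embryonal carcinoma cell into neurons.

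P19 is a wild type mouse line, and all 47 libraries came from it. Undifferentiated cells (D0) were grown in serum without added retinoic acid, and the D6 cells had spent 6 days in NDiff 227, a neural medium, with 500 nM retinoic acid. D0 and D6 therefore differ in the acid, the medium and the time in culture together, and these cannot be told apart for any gene here. The RNA was labeled with 4-thiouridine (4sU), at 20 µM in D0 and 500 µM in D6, which is read after alkylation as a T>C conversion in the sequence (SLAM-seq). In the catabolic assay the cells were labeled for 15 h and then chased without 4sU in medium with 10 mM UTP. In the anabolic assay 4sU was added and left on. Both were sampled at 0, 3, 6 and 9 h, in 3 libraries per group, with 2 for the 6 h chase of D6. The sample labels give these times as 0, 1, 3 and 9, and the hours of the study design are used here. Whether the retinoic acid stayed on during labeling and chase was not stated in the sources used here.

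Sequencing was from the 3′ end, so each gene was measured on its 3′ UTR. The libraries held 1489528 to 11677046 reads on the distinct 3′ UTR intervals of all RefSeq transcripts in the files, with a median of 5750402. Levels are given as CPM, the reads of a transcript per unit of library size, after scaling by the trimmed mean of M values. This library size is the sum over mRNA transcripts, so reads on a UTR that isoforms share count once per isoform. The study describes its replicates as biological, and p-values measure the spread between these libraries. Replicates 14, 45 and 53, all of D6, held the fewest transcripts with at least 10 reads (5722, 9073 and 9380). Replicates 14 and 15, the only libraries of their group, had the weakest correlation with their own group (Spearman's rho 0.670), below replicates 53 (0.744), 45 (0.776) and 40 (0.779). The markers followed the labels: in libraries without 4sU, 8 of the 9 neuronal markers rose at D6, and 3 of the 4 undifferentiated markers that passed the filter fell (all 4 after 15 h of 4sU). Of 5 glial markers 2 were tested, of which Fabp7, also a gene of radial glia, rose in both comparisons (log2 fold change 6.21 without 4sU, adjusted p = 0.000986), while Slc1a3 was called in neither (-0.39 and -1.07, adjusted p = 0.502 and 0.0878). The glial markers summed to 80.8 to 153 CPM at D0 and 39.5 to 277 CPM at D6, with Aqp4 at 0 in all libraries and Gfap at 0 in 22 of 23 at D6. Markers of mesoderm, muscle and endoderm summed to 7.07 to 34.6 CPM and 0 to 37.4 CPM. The part of these cell types in the levels below was not tested. Since the cells are measured in bulk, fewer cells of a type and less RNA per cell cannot be told apart.

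The members' transcripts share 1 3′ UTR per gene, and no other gene of the files overlaps them on the same strand. In mm10, the build of the files, Rara (NM_001176528.1) was measured at chr11:98973638-98974942 on the plus strand, Rarb (NM_001289760.1) at chr14:16430839-16432070 on the minus strand and Rarg (NM_001042727.2) at chr15:102234938-102236023 on the minus strand. The retinoid X receptors lay at chr2:27759689-27763319 (Rxra, NM_001290481.1, plus) and chr17:34037532-34038403 (Rxrb, NM_001205214.1, plus). Crabp1 (NM_001284507.1) was read at chr9:54772877-54773110 and Crabp2 (NM_007759.2) at chr3:87953038-87953372, both on the plus strand. Cyp26a1 (NM_007811.2) lay at chr19:37701352-37701536 on the plus strand, Cyp26b1 (NM_001177713.1) at chr6:84571414-84574266 on the minus strand and Dhrs3 (NM_001172424.1) at chr4:144927220-144927645 on the plus strand. The shortest of these UTRs is that of Cyp26a1, with 185 bases of which 43.8% are T, and the longest that of Rxra, with 3631 bases.

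The receptors bind a pair of hexamers in direct repeat, and the spacing of 5 bases (DR5) is the classical retinoic acid response element. Among 32851 RefSeq promoters of GRCm38 (250 bases before to 50 after the start), a DR5 made of the half-site AGGTCA, the half-site GGGTCA, the half-site AGTTCA or the half-site GGTTCA, with NNNNN between the pair, on either strand, was found in 32, or 0.0974%. Of 17 promoters of 9 members, 2 held one, those of Rarb and of Cyp26a1. Both are printed because their genes are among those that rose at D6, 5′ to 3′ on the strand of the element, with the half-sites in capitals.
Rarb: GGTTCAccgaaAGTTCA
Cyp26a1: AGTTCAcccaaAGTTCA
The Rarb element lies at chr14:16575513-16575529 on the minus strand, the strand of the gene, from -53 to -37 relative to the start. The Cyp26a1 element lies at chr19:37697776-37697792 on the minus strand, opposite to the gene, from -32 to -16. The repeats with 1 base (DR1) and 2 bases (DR2) between the half-sites were in 0.222% and 0.268% of all promoters and in none of the 17. Crabp1, Cyp26b1 and Dhrs3 had none of the 3 repeats in this window, and Crabp2 was not searched. The letters alone show no binding.

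The first comparison asked how the levels differ between the states in libraries that never saw 4sU. All 10 members passed the filter on low counts, for which the libraries of 1 state suffice. Of the 10, 7 were higher at D6 and none was lower, where 7.74% of the 16091 transcripts tested were higher and 5.4% lower (edgeR quasi-likelihood test, Benjamini-Hochberg adjusted p under 0.05). The median log2 fold change was 3.26 over the members and -0.04 over all transcripts. The enzymes and Crabp1 changed most, and the receptors were split.

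Rarb, the receptor gene that retinoic acid induces, stood at 4.57, 0.423 and 2.82 CPM in the 3 D0 libraries and at 68.0, 82.4 and 85.3 CPM in the 3 D6 libraries. The groups were far apart, and Rarb rose by 4.89 on the log2 scale (SE 0.78, adjusted p = 0.00216). Rara, which is expressed widely, rose from 45.2, 47.5 and 32.7 CPM to 98.5, 98.8 and 129 CPM, a log2 fold change of 1.37 (SE 0.35, adjusted p = 0.0273). The Rara groups did not overlap either, but the call was lost without replicate 37, 38, 39, 55 or 57 (adjusted p 0.0700, 0.0556, 0.0984, 0.0711 and 0.0990).

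Rarg, the third retinoic acid receptor and the one best known from early embryonic and skeletal tissue, ran the other way. It had 184, 337 and 154 reads in the D0 libraries and 0, 44 and 2 reads in the D6 libraries. All D6 libraries were below all D0 libraries, with replicate 38 well above the other D6 libraries, and the fitted log2 fold change of -3.17 (SE 1.61) gave an adjusted p of 0.258. Without replicate 38 the fitted value was -7.74, with an adjusted p of 0.0217. The undifferentiated markers summed to 670 CPM in replicate 38 against 498 and 440 CPM in the other D6 libraries of this group, with 3 of the 8 markers detected, against 4 in each of the others. The highest Sox2 level of any D6 library was 668 CPM, and only replicate 38 had a sum above that. Its sum is therefore nearly all Sox2, which neural progenitors also express. The part of these markers in the Rarg level was not tested.

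Of the retinoid X receptors, the shared partners of the receptor dimers, neither passed the test. Rxra gave 35.1, 52.6 and 40.5 CPM at D0 and 16.9, 14.5 and 42.9 CPM at D6, a log2 fold change of -0.79 (95% interval -1.97 to 0.39). Rxrb gave 21.1, 19.2 and 66.6 CPM at D0 and 48.1, 84.9 and 72.3 CPM at D6, a log2 fold change of 0.96 (95% interval -0.11 to 2.02). In both genes the libraries of the states overlapped.

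Crabp1, which holds retinoic acid in the cytosol, was near the limit of detection at D0, with 2.43, 0.705 and 3.73 CPM. At D6 it reached 305, 445 and 281 CPM, a log2 fold change of 7.20 (SE 0.55, adjusted p = 1.91e-05). Crabp2, which carries the acid to the nuclear receptors, was already present at D0, with 31.7, 37.9 and 55 CPM, and stood at 167, 79.8 and 135 CPM at D6. Its log2 fold change was 1.62 (SE 0.39, adjusted p = 0.0214), and the call was lost without replicate 37, 39 or 55 (adjusted p 0.110, 0.0718 and 0.0806).

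Both hydroxylases that degrade retinoic acid rose. Cyp26b1 went from 18, 9.31 and 18.4 CPM to 1148, 1531 and 1229 CPM, a log2 fold change of 6.42 (SE 0.35, adjusted p = 1.62e-06). Cyp26a1 had 1, 1 and 28 reads in the D0 libraries and 966, 377 and 671 reads at D6, and its log2 fold change was 6.54 (SE 1.07, adjusted p = 0.00252). With 1 library left out this change ran from 5.97 to 9.53. Dhrs3, a reductase that returns retinaldehyde to retinol and so limits the supply of the acid, rose from 7.65, 9.73 and 0.908 CPM to 192, 326 and 198 CPM, a log2 fold change of 5.28 (SE 0.73, adjusted p = 0.000925). In all 3 enzymes every D6 library of this comparison was above every D0 library. The share of all transcripts without overlap in this comparison was not counted. With 3 against 3 libraries the two-sided exact permutation test cannot give a p below 0.1.

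The same contrast was then made in separate libraries, taken after 15 h of 4sU, where the dose of 4sU differs along with the state. Here 6 members were higher and 1 lower, against 7.33% and 7.55% of 15655 transcripts. Rarb (6.37, SE 1.13), Crabp1 (5.96, SE 0.91), Cyp26a1 (5.71, SE 1.04), Cyp26b1 (6.998, SE 0.55) and Dhrs3 (5.32, SE 0.39) rose again on the log2 scale, with adjusted p from 9.43e-06 to 0.00385. For Rarb, 2 of the 3 D0 libraries had 0 reads and replicate 25 had 24, and without that library the D0 group is at 0 and the fitted value of 12.43 has no measured size. Leaving out 1 library moved Crabp1 over 5.41 to 8.33, Cyp26a1 over 5.15 to 9.44 and Cyp26b1 over 6.57 to 7.70. These 5 genes kept their calls in both comparisons under every alternative normalization, tool, filter and left-out library that was run.

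In these 15 h libraries Rara did not differ. It stood at 71.2, 60.4 and 74.6 CPM at D0 and at 68.5, 80.5 and 67.2 CPM at D6, a log2 fold change of 0.08 with a 95% interval of -0.57 to 0.73. Whether this differs from the rise without 4sU was not tested. Crabp2 (1.48, SE 0.43, adjusted p = 0.0413) passed, but without replicate 7, 8, 9, 26 or 27 its adjusted p was 0.0934, 0.0513, 0.149, 0.0818 or 0.123. Rxrb had the opposite sign to the first comparison, at -0.94 (95% interval -2.07 to 0.19), and Rxra stood at -0.98 (95% interval -2.25 to 0.29).

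Rarg was the member that fell. Its reads were 110, 159 and 110 at D0 and 2, 2 and 0 at D6, which is 99.9-fold fewer after scaling, with a 95% counting interval of 38.7 to 368.5 that covers counting error only. The adjusted p was 0.0107.

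**Figure D1:**
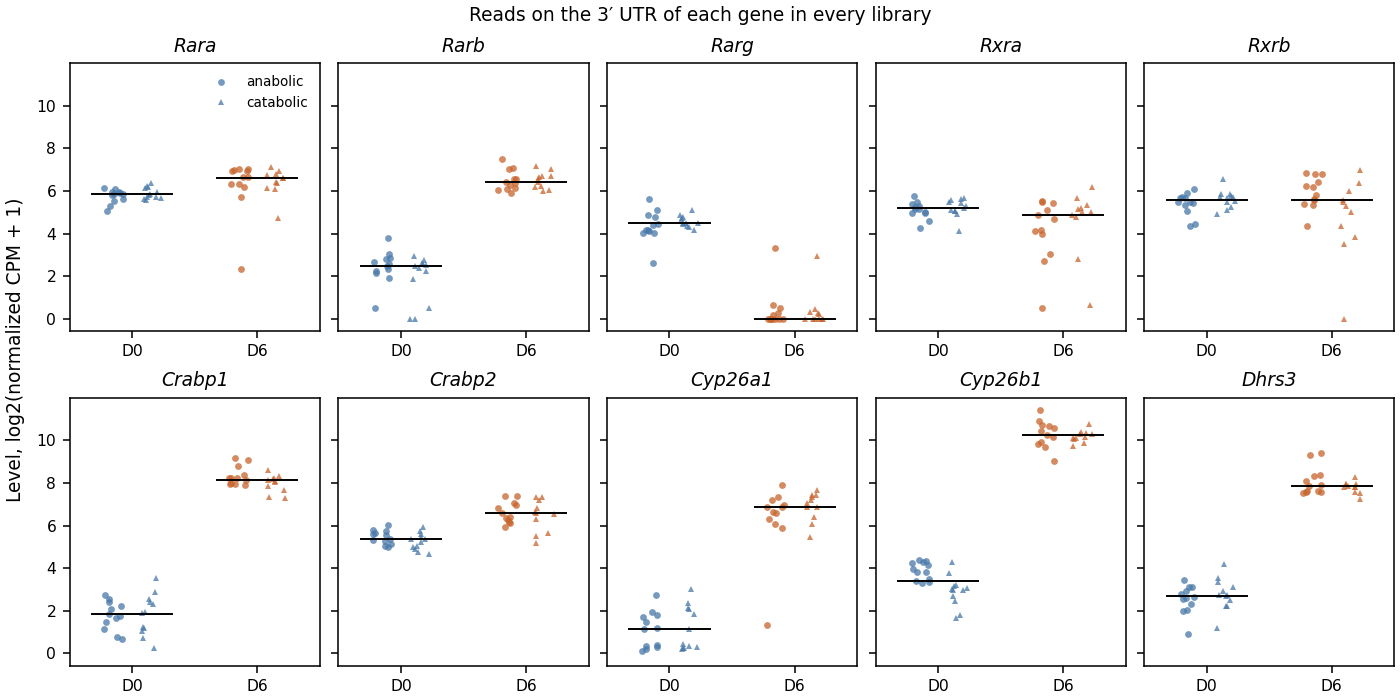
Level of each gene in every library as log2(CPM + 1), with D0 in blue and D6 in orange, anabolic libraries as circles, catabolic libraries as triangles and the median of each state as a line. All 23 D6 libraries lie above all 24 D0 libraries for Rarb, Crabp1, Cyp26b1 and Dhrs3, and the Rarg median at D6 is 0.

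The levels were then set side by side over all libraries of a state, whatever the assay or time. In 4 of the 10 members every D6 library was above every D0 library, where 1.82% of 20699 transcripts showed this. These were Rarb (D0 0 to 13.0 CPM, D6 58.1 to 178 CPM), Crabp1 (0.199 to 10.6 and 156 to 573 CPM), Cyp26b1 (2.19 to 19.8 and 517 to 2753 CPM) and Dhrs3 (0.908 to 17.6 and 149 to 675 CPM). Cyp26a1 overlapped through 1 D6 library only, replicate 45 at 1.51 CPM, while its medians were 1.20 and 118 CPM.

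Rarg had reads in all 24 D0 libraries, 5.22 to 47.5 CPM with 5581 reads in all. At D6 it had 112 reads in all, and 13 of the 23 libraries held none. Of the 112 reads, 44 came from replicate 38 and 53 from replicate 16, and no other D6 library had more than 3. Among the defining undifferentiated markers, Pou5f1 fell to a median of 0.201 CPM at D6 and was at 0 in 6 of 23 libraries, while Sox2, which neural progenitors also express, had medians of 532 CPM at D0 and 439 CPM at D6 and was called lower after 15 h of 4sU (adjusted p = 0.0411). The summed markers of the undifferentiated list ran from 298 to 670 CPM at D6 and from 724 to 1515 CPM at D0, and those of the neuronal list from 3518 to 7084 CPM and from 328 to 492 CPM.

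The contrast of the states was fitted at each of the 8 assay and time points in 1 model of all 47 libraries. Of 20699 transcripts, 6.3, 5.75, 6.43 and 5.76% were higher at D6 after 0, 3, 6 and 9 h of labeling, and 3.87, 5.24, 3.95 and 6.06% were lower. In the chase 5.54, 5.16, 7.03 and 5.9% were higher and 4.55, 4.4, 12.5 and 4.86% lower. Rarb, Crabp1, Cyp26a1, Cyp26b1 and Dhrs3 were higher at 8 of 8 points. Crabp2 was higher at 5 of 8 and positive at all 8, with log2 fold changes from 0.21 to 2.04. Rara, Rxra and Rxrb were called at none, with ranges of -0.09 to 1.42, -1.26 to 0.78 and -1.66 to 1.14. Without replicates 14, 45 and 53, an alternative chosen after seeing the data, Rara was higher at 4 of 8 points and Crabp2 at 6 of 8, and the other counts did not change.

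Rarg was lower at 6 of 8 points, and the others were the points that hold replicates 38 and 16. By the ratio of scaled reads, it was 7.09-fold lower at the 9 h chase on 53 D6 reads (95% counting interval 5.36 to 9.56) and 11.4-fold lower without 4sU on 46 D6 reads (8.44 to 15.7). At the 3 h chase it was 185-fold lower on 3 D6 reads (95% counting interval 62.9 to 897). At the 9 h labeling point and the 6 h chase all D6 libraries had 0 reads, against 1053 and 773 at D0. Set against a floor of 3 reads over the D6 group, Rarg was at least 137-fold lower at the first and at least 41.1-fold lower at the second. The lower limits of the 95% counting intervals, which use no floor, were 111-fold and 33.3-fold.

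**Figure D2:**
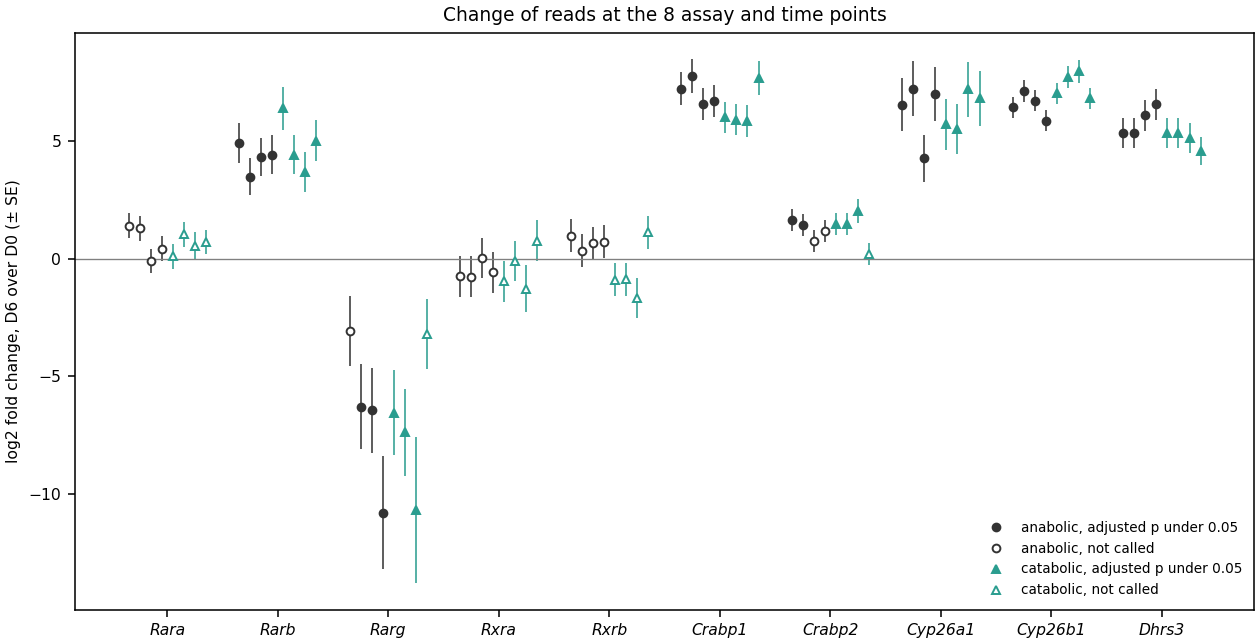
Fitted log2 fold change of reads, D6 over D0, with its SE at the 8 assay and time points (0, 3, 6 and 9 h from left to right, anabolic circles before catabolic triangles), filled where the adjusted p is under 0.05. Rarb, Crabp1, Cyp26a1, Cyp26b1 and Dhrs3 are filled at all 8 points, and the lowest Rarg values, near -10.8, are fits to groups with 0 reads at D6 and have no measured size.

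Of the other genes of retinoid handling, Fabp5, a fatty acid binding protein that can also carry retinoic acid, fell in the libraries without 4sU, from 3545 reads at D0 to 618 at D6 (log2 fold change -2.25, SE 0.61, adjusted p = 0.0339). After 15 h of 4sU its adjusted p was 0.0527. Of the receptor coregulators, which carry the repressing and activating functions of the bound receptors, 10 were tested and none was called in either comparison. Of all transcripts, 13.1% of 16091 and 14.9% of 15655 were called. The median log2 fold changes of the coregulators were 0.05 and 0.20. Both lists were chosen with earlier results of these data known.

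The levels of the members were next compared along each assay. From 0 to 9 h of chase none of the 10 passed the test at D0, at D6 or in the difference between the states, where 0.0399%, 0.809% and 0.142% of 17557 transcripts did (at D6 0.575% higher and 0.234% lower, and in the difference 0.103% higher and 0.0399% lower). With 1 library left out, 41.5 to 80.4% of the calls at D6 were higher, and 0 to 84.1% of those in the difference. At an unadjusted p under 0.05 were 812, 2552 and 2030 transcripts, and 1, 2 and 2 members. At D6 Rxrb went from 43.3, 13.3 and 38.7 CPM to 63.7, 125 and 80.8 CPM (log2 fold change 1.49, SE 0.50, adjusted p = 0.172). Crabp2 went from 96.4, 79.4 and 145 CPM to 49.0, 44.8 and 35.6 CPM (-1.32, SE 0.44, adjusted p = 0.173).

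Over 9 h of 4sU again no member passed, against 0% of 17860 transcripts at D0, 0.0336% at D6 and 0% for the difference. Unadjusted p-values under 0.05 were found for 437, 1451 and 925 transcripts, and for 0, 1 and 1 members. The member was Rarg, which at D6 had 46 reads before labeling and 0 after (adjusted p = 0.4995). Of these 46 reads, 44 came from replicate 38. Rarg entered through its D0 libraries, and its fitted value of -7.63 at D6 ran from -8.27 to -3.14 with 1 library left out. DESeq2 called 54, 289 and 114 transcripts, among them Rarg at D6 with an adjusted p of 0.0486. That call sets the reads of mainly 1 library against a group at 0, so no change of Rarg is read from it.

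Labeling was measured as the share of covered T positions read as C. After 15 h of 4sU all 9 members with enough coverage at D6 were above the libraries without 4sU, as were 77.9% of 13450 transcripts. The call of Rxrb was lost without replicate 7 (adjusted p = 0.0537). At D0, with less 4sU, 2 of 6 members were, Rara (adjusted p = 0.00172) and Rarg (adjusted p = 0.0290), against 50.4% of 13339 transcripts. The Rarg call was lost without replicate 26, 55, 56 or 57 (adjusted p 0.102, 0.0695, 0.0539 and 0.0739), and Rxra was called without replicate 55 (adjusted p = 0.0258). By limma on the log2 rate Crabp2 and Cyp26b1 also passed at D0 (adjusted p 0.0245 and 0.0172).

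Cyp26b1 had the most coverage, 140937 to 243163 covered T in the D6 libraries after 15 h, and its rates there were 4.57, 4.90 and 4.48%. Without 4sU they were 0.0466, 0.0280 and 0.0317%. At D6 Rara had the highest mean rate of the members without 4sU, with 0.920, 0.298 and 0.508%, against 0.0704, 0.0429 and 0.0127% at D0. This level without 4sU is not subtracted from the rates below unless stated.

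The course of labeling at D6 is given for Dhrs3, Cyp26b1 and Crabp1. Dhrs3 was at 0.682, 0.649 and 0.00732% after 3 h and at 4.13, 4.14 and 4.42% after 6 h, reaching 5.31, 7.13 and 5.24% after 9 h. Cyp26b1 was at 0.243, 0.289 and 0.339% after 3 h, at 2.54, 2.92 and 3.38% after 6 h and at 4.38, 3.35 and 3.91% after 9 h. Crabp1 took up label more slowly, with 0.0123, 0.0136 and 0.0581% after 3 h, 0.977, 0.914 and 0.957% after 6 h and 2.47, 3.40 and 1.69% after 9 h. Without 4sU the Crabp1 libraries of D6 ran from 0.00274 to 0.0598%, so its 3 h values lay within that range. The Dhrs3 libraries without 4sU ran from 0.147 to 0.430%.

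Over all transcripts the D6 rate was 0.226, 1.95 and 3.60% at these times. Dhrs3 libraries were above, and Crabp1 libraries below, this mean at 6 h and at 9 h. As a share of its rate after 15 h, the mean 9 h rate at D6 was 117% for Dhrs3, 103% for Cyp26a1, 96.2% for Rara, 83.4% for Cyp26b1, 80.2% for Rarb, 72.9% for Crabp1 and 70.8% for Rxrb. Crabp2 stood at 50.1% and Rxra at 39.05%. The 15 h rates of Dhrs3 behind its share ran from 2.48 to 6.38%. The difference of this share between the states was called for no member and for 0 of 14048 transcripts by edgeR (994 at an unadjusted p under 0.05, none of them a member, and 113 called by limma). Crabp1, Cyp26a1 and Dhrs3 at D0 and Rarg at D6 entered this test through the other state alone. Their means there were 830, 334, 870 and 79.2 covered T in the anabolic libraries, and no difference is read for them.

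**Figure D3:**
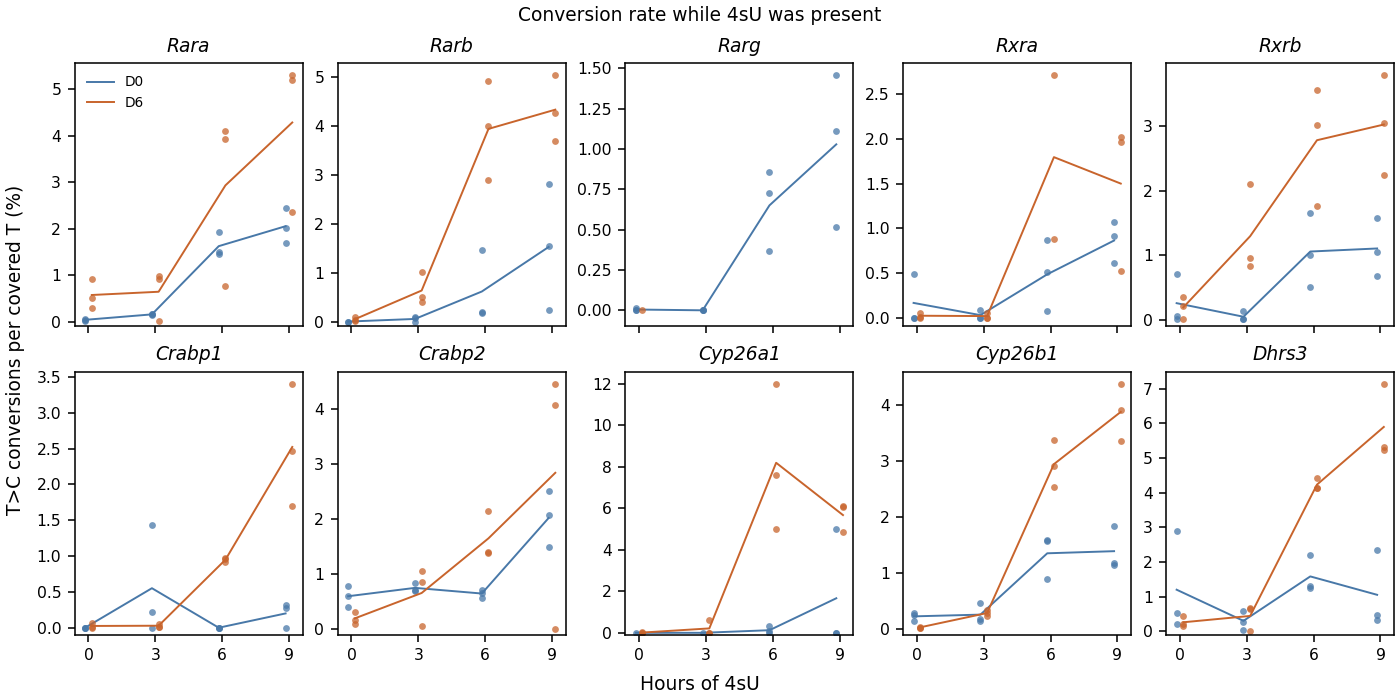
T>C conversions per covered T (%) against hours of 4sU in the anabolic libraries with at least 100 covered T, D0 in blue and D6 in orange, with points for libraries and lines through their means. The Crabp1 libraries of D6 lie between 0.914 and 0.977% at 6 h, and those of Dhrs3 between 4.13 and 4.42%.

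In the chase at D6 the rate over all transcripts was 4.63% at 0 h, 4.67% at 3 h, 2.27% at 6 h and 0.883% at 9 h. Cyp26b1 was at 4.90, 4.75 and 3.5% after 3 h, at 2.36 and 1.63% in the 2 libraries of 6 h and at 0.434, 0.792 and 0.285% after 9 h. Dhrs3 was at 4.41, 7.64 and 6.91% after 3 h, at 0.0290 and 0.169% after 6 h and at 0.578, 0.00745 and 0.0800% after 9 h. Its 6 h libraries were below those of Cyp26b1.

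Crabp1 kept the largest mean share of its label among the members at D6. It went from 4.01, 3.48 and 2.90% to 1.98 and 2.97% at 6 h and 1.93, 2.74 and 1.38% at 9 h, so that 1 of the 9 h libraries was close to the lowest at the start. Rarb went from 6.45, 5.64 and 4.09% to 0.634, 0.0238 and 0.418%, and Cyp26a1 from 5.77, 6.76 and 4.03% to 0.933, 0.142 and 0.501%. The libraries of 6 h were few and uneven, as for Rarb (0.0204 and 2.59%) and Crabp2 (0.0623 and 5.51%), with the low value of each in replicate 14.

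**Figure D4:**
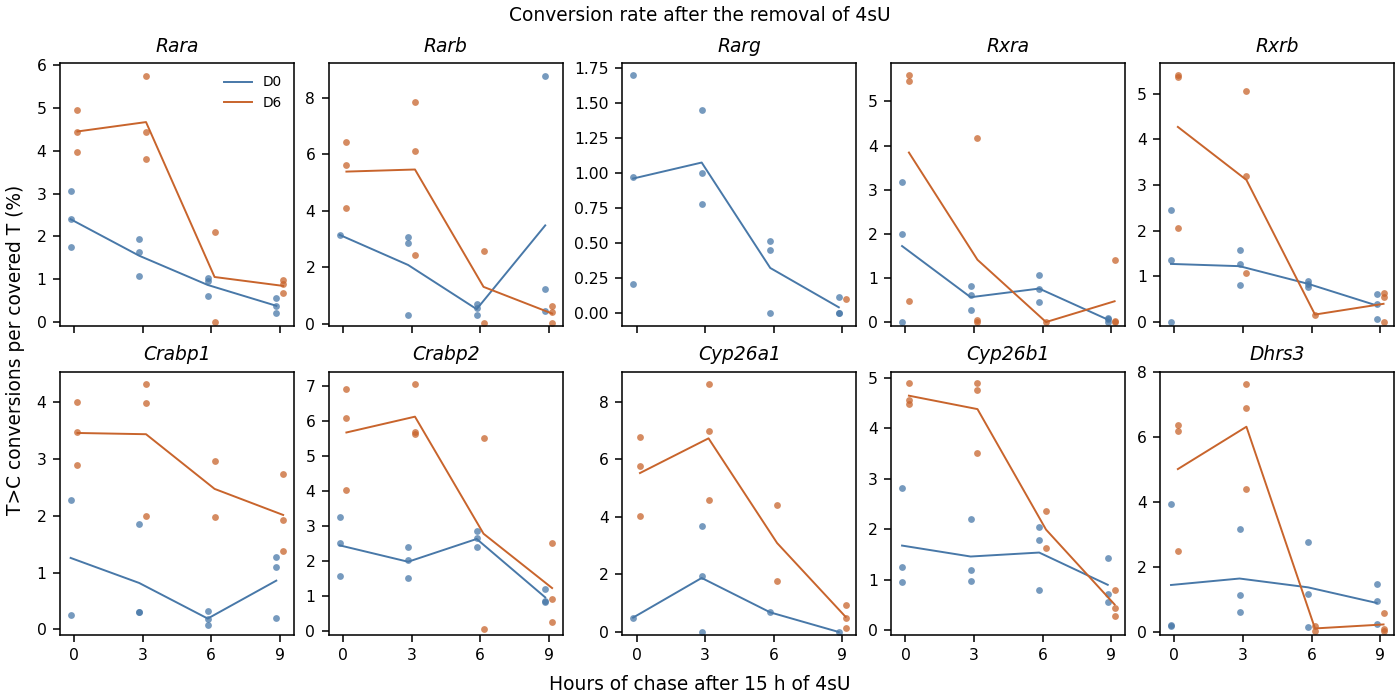
T>C conversions per covered T (%) against hours of chase in the catabolic libraries with at least 100 covered T, D0 in blue and D6 in orange, with points for libraries and lines through their means. At D6 Crabp1 libraries remain between 1.38 and 2.74% at 9 h, while those of Dhrs3 lie between 0.00745 and 0.578%.

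Slopes of the log2 rate over the hours of chase were below 0 with an adjusted p under 0.05 for 6 of the 9 members covered at D6, where 37.7% of 14166 transcripts were and 0.0565% were above 0. The coverage minimum was a mean over both states, so Rarg at D6 and Crabp1 and Cyp26a1 at D0 entered through the other state alone, with means of 110, 878 and 468 covered T in these, and no slope is read for them there. They were Dhrs3 (-0.62 per h, SE 0.16), Rarb (-0.48, SE 0.15), Rxrb (-0.42, SE 0.16), Cyp26b1 (-0.37, SE 0.06), Rara (-0.31, SE 0.10) and Crabp2 (-0.26, SE 0.10), with adjusted p from 4.66e-05 to 0.0376. Those of Rxrb and Crabp2 were lost without single libraries, replicate 7, 8, 16, 17 or 18 for Rxrb (adjusted p 0.0605, 0.0524, 0.0653, 0.0915 and 0.0590) as well as with 0 and 9 h alone (0.0766), and replicate 8, 17 or 18 for Crabp2 (0.0524, 0.119 and 0.106). Cyp26a1 was just short (-0.39, SE 0.16, adjusted p = 0.0502) and was called in 10 of the 23 fits with 1 catabolic library left out (adjusted p down to 0.0356), with at least 5000 covered T (0.0415), with the hours of the labels (0.0113) and with 0 and 9 h alone (0.0248), and the slope of Crabp1 was -0.09 with a 95% interval of -0.26 to 0.07.

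At D0 the slope was called for Rara, 1 of the 8 members covered there (-0.29, SE 0.09, adjusted p = 0.0405), against 10.8% of transcripts below 0 and 0.0141% above. This call was lost without replicate 25, 26, 29, 30, 33, 34, 35 or 36 (adjusted p 0.0508 to 0.131), by limma on the log2 rate (0.182) and by limma after subtraction of the rate without 4sU (0.127). With the hours of the labels Rarg was called at D0 too (adjusted p = 0.0420). In the direct test of the slopes between the states none of the 7 members covered in both was called, and 3 of 14166 transcripts were (0.0212%, with 848 at an unadjusted p under 0.05). The smallest unadjusted p among the members belonged to Cyp26b1, whose slope was 0.29 per h more negative at D6 (SE 0.08, unadjusted p = 0.000552, adjusted p = 0.383 by edgeR). With the hours of the labels, or with 0 and 9 h alone, Cyp26b1 passed (adjusted p 0.00940 and 0.0481). At D0 its rates rested on 284 to 5879 covered T per library, against 98272 to 428297 at D6.

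Half-lives from exponential fits were kept at an R squared over 0.6 and at least 1000 covered T per library on average. For decay the members kept were Rara at D0, with 241 ± 36.4 min (SE, 12 libraries), and Rara and Cyp26b1 at D6, with 322 ± 97.9 and 310 ± 67.7 min (SE, 11 libraries). Of all covered transcripts, 15.9% of 14090 were kept at D0 and 18.2% of 12906 at D6. Over all kept transcripts the quartiles were 218 and 357 min before differentiation and 172 and 285 min after it. Of the latter transcripts 83.9% were shorter than Rara and 81.2% shorter than Cyp26b1. These ranks hold for the hours of the design and unsubtracted rates only. Under the 3 other settings the D6 half-life was 183 to 265 min for Rara and 168 to 307 min for Cyp26b1. The ranks under those settings were not tested. The fit of Crabp1 at D6 gave 816 ± 287 min with an R squared of 0.386 and was not kept.

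For synthesis, fitted as the approach of the rate to its level after 15 h, 5 members were kept at D6 and 2 at D0. Of all covered transcripts, 11.1% of 13247 were kept at D6 and 22.0% of 14524 at D0. Of the members kept at D6 Dhrs3 had the shortest, 193 ± 56.9 min (SE, 12 libraries), and 2.32% of the transcripts kept were shorter. Without replicate 9 of the 15 h libraries it was 268 min. Rarb (276 ± 49.4 min), Rxrb (283 ± 42 min) and Cyp26b1 (306 ± 53.1 min) lay within 1 SE of each other. Crabp1 had the longest, 510 ± 115 min, and 83.1% of the transcripts kept, whose median was 374 min, were shorter. With 1 library left out the ranges were 158 to 268 min for Dhrs3, 236 to 328 min for Rarb and 221 to 407 min for Rxrb. They were 284 to 334 min for Cyp26b1 and 461 to 660 min for Crabp1. At D0 Rara gave 288 ± 54.3 min and Cyp26b1 242 ± 55.1 min, against a median of 416 min, and without replicate 27 the value of Cyp26b1 was 125 min. All these times rest on the hours of the design, and with the hours of the labels the decay half-lives of Rara at D0 and D6 and of Cyp26b1 were 123, 183 and 186 min. The synthesis half-lives then came to 101 min for Dhrs3, 143 min for Rarb, 149 min for Rxrb, 172 min for Cyp26b1 and 336 min for Crabp1 at D6, and to 157 min for Rara and 114 min for Cyp26b1 at D0. With 0 and 9 h alone the decay half-life of Cyp26b1 at D6 was 168 min, and the synthesis half-life of Crabp1 was 287 min, no longer above the 304 min of Rxrb.

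The label left after 9 h of chase was set against the mean rate at 0 h of the same state. At D6 it was 55.8, 79.1 and 39.8% for Crabp1 (58.2 ± 19.8%, SD, n = 3), and 93.8% of all transcripts had less. For Rara it was 21.9, 15.3 and 19.9%, for Cyp26b1 9.34, 17 and 6.12%, and for Dhrs3 11.5, 0.148 and 1.59%. The median over all transcripts was 11.6%, with quartiles of 4.45 and 23.6%. After subtraction of the rate without 4sU the mean of Rara fell from 19.0 to 6.65%, while that of Crabp1 was 57.9%.

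At D0 Cyp26b1 kept 84.8, 32.5 and 43% and Dhrs3 102, 64.7 and 17.3%, all above their D6 libraries. Of the 7 members with coverage in both states, 3 did not overlap, all lower at D6, where 14.3% of 10723 transcripts did the same and 3.52% were higher at D6 without overlap. For each the two-sided exact permutation test of 3 against 3 libraries gave p = 0.1, the smallest that this design allows, so no call was made. The third was Rarb, whose D0 value is not usable, since 2 of the 3 D0 libraries after 15 h had no Rarb reads. With at least 5000 covered T required, 3 members could be compared (Rara, Rxrb and Crabp2) and none was without overlap. After subtraction of the rate without 4sU the libraries of Dhrs3 overlapped (exact permutation p = 0.4), and those of Rarb and Cyp26b1 did not. Those of Rxra then no longer overlapped either, with the D6 libraries higher (means of -7.34% at D0 and 11.9% at D6, exact permutation p = 0.1), where the negative share is a rate below that without 4sU.

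**Figure D5:**
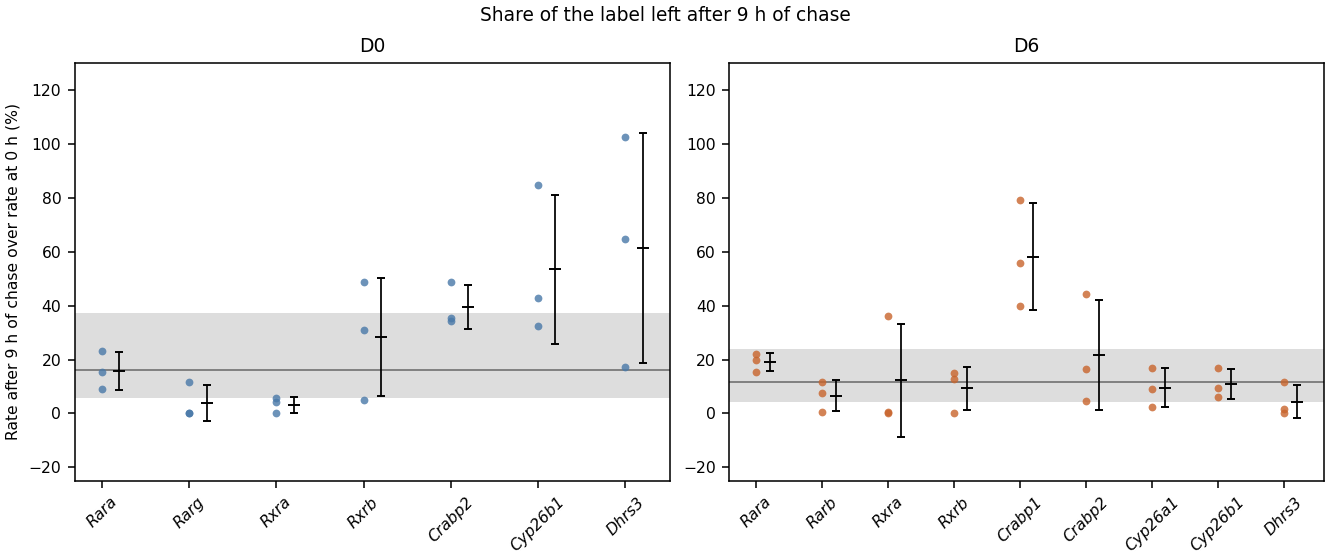
Rate after 9 h of chase over the mean rate at 0 h (%), for each library (points) with mean and SD (n = 3), at D0 and D6, for members with at least 1000 covered T per library on average, without Rarb at D0; the grey line and band are the median and quartiles over all transcripts. At D6 Crabp1 lies above the band at 58.2% and Dhrs3 at 4.42% near its lower edge.

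Some mRNAs of short life carry the AU-rich letters TATTTAT in the 3′ UTR, and these were searched on the sense strand of the members' UTRs in mm10. They were found in Rara, Rarb, Rarg, Crabp2, Cyp26a1 and Cyp26b1, and not in Rxrb, in the 3269 bases read of Rxra, or in Crabp1 and Dhrs3, the members with the highest and the lowest mean share of label left at D6. The windows are shown, in the sense of the gene with the match in capitals, for members whose label was followed at D6.
Rara: gaataaagttcTATTTATtctataa
Rarb: aagaataaataTATTTATtttaaa
Crabp2: gtgatttagaaTATTTATtggttaatttt
Cyp26a1: gtatagtatgaTATTTATgtgtctctact
Cyp26b1: cccctgtcccaTATTTATtcactgacctt
They lie at chr11:98974918-98974942 on the plus strand, chr14:16430839-16430862 on the minus strand, chr3:87953324-87953352 and chr19:37701437-37701465 on the plus strand, and chr6:84573516-84573544 on the minus strand. Among the last bases of other 3′ UTRs, taken at the length of each member's own, TATTTAT was in 29.1% for Rara, 27.9% for Rarb, 10.5% for Crabp2, 6.83% for Cyp26a1 and 47.7% for Cyp26b1. For the lengths of Crabp1 and Dhrs3 the shares were 8.04% and 12.6%.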

How the data were processed

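SLAM-seq libraries of P19 cells were made by the authors with a QuantSeq 3′ kit without molecular identifiers, mapped to mm10 and counted with SLAMdunk (version 0.3.3, per the file headers), 1 table per library. The methods name a GENCODE annotation while the rows carry RefSeq names, which are used here. The deposited counts per 3′ UTR interval are of reads, of T>C conversions and of the T positions that reads cover. The deposited CPM column and the deposited conversion rate, a fraction, were not used, and both were recomputed from the counts.

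Counts were summed per RefSeq mRNA, and each member was described by its transcript with the most covered T. Reads were tested with edgeR (version 4.0.16, TMM, filterByExpr, quasi-likelihood) over all transcripts, which are not all independent, since isoforms share a UTR. Conversions were tested likewise with log covered T as offset, at a mean of at least 1000 covered T per library. p-values were adjusted by Benjamini-Hochberg with a threshold of 0.05. The SE is the log2 fold change over the square root of the F statistic, and 95% intervals of log2 values take the normal multiple of this SE, so they are narrower than the quasi-likelihood test itself. Half-lives came from least squares fits of an exponential to the rate over the mean rate at 15 h. The scripts were tested on simulated data. DESeq2 (version 1.42.0), limma (version 3.58.1, on log2 of the rate plus 1e-4) and other settings were alternatives. Depth is given in the report, and intervals of read ratios cover counting error only.

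All 10 members are named, and of the other lists up to 4 genes per direction called without 4sU, those with the largest change. The members and lists were chosen with earlier results of these data known. Some results of the lists of other genes are not reported here. Promoters come from RefSeq (GRCm38), 3′ UTR windows from GENCODE models on mm10.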

Additional observations from a re-analysis of the deposited data

How the results depend on the processing

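No paired analysis was possible because the replicate numbers of the labels differ between the groups. Counts of members called moved with the setting as follows. From 0 to 9 h of chase, 1 member in place of 0 was called at D0 without a filter on low counts (Crabp1, adjusted p = 0.0231), and 1 in place of 0 in the difference between the states, without the filter (Crabp1, 0.0265) or without D0 replicate 25 (Rarb, 0.0401; range 0 to 1 over left-out libraries). Without replicate 25 Rarb had 0 reads at D0 before the chase, so that call is set against a group at 0. After 9 h of 4sU at D6, DESeq2 called 1 in place of 0 (Rarg, also against a group at 0). Labeling at D0 was called for 1 member in place of 2 with at least 5000 covered T, for 4 by limma, and for 1 to 2 with a library left out. The difference of slopes was called for 1 in place of 0 with the hours 0, 1, 3 and 9 and with 0 and 9 h only. Decay half-lives kept were 3, but 6 with the hours of the labels, 10 with 0 and 9 h only, and 2 to 5 with a library left out (5 without D0 replicate 27, D6 replicate 9 or D6 replicate 11). Members without overlap in the share of label left were 0 in place of 3 with at least 5000 covered T. The D0 change of Cyp26a1 over the chase reversed from -2.13 to 1.60 without replicate 25 (range -3.59 to 1.60 over left-out libraries), whose 42 reads are most of its D0 reads at 0 h. The causes were not tested, apart from fewer members being covered at 5000.

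Over all transcripts, calls without 4sU were 2115, but 3234 by DESeq2, 1259 with 1 transcript per cluster of overlapping UTRs and 1253 without replicate 37. After 15 h of 4sU they were 2329, but 1381 with 1 per cluster and 1416 without replicate 7. Over the chase, 7, 142 and 25 became 106, 694 and 380 by DESeq2 and 84, 512 and 361 without the filter, and 84 and 1 for the latter pair with 1 per cluster. With a library left out they ran from 2 (without D0 replicate 25) to 26 (without D0 replicate 26), from 30 (without D6 replicate 8) to 445 (without D0 replicate 26) and from 3 (without D6 replicate 7 or 9 or D0 replicate 35) to 66 (without D0 replicate 25). Over 9 h of 4sU the counts of 0, 6 and 0 ran to 7, from 0 to 15 and to 5, and for the uptake share from 0 to 55. Calls of 15 h labeling, 6727 and 10484, became 4226 and 6676 with 1 per cluster, and 6193 at D6 with at least 5000 covered T. The difference of slopes, 3 calls, became 6 with at least 100 covered T, 100 with the hours of the labels, 15 with 0 and 9 h only and 0 by limma. Depth limits Crabp1, Cyp26a1, Dhrs3 and Rarb at D0 and Rarg at D6, whose rates rest on few covered T.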
